A study of Homo sapiens with 4 samples.

Results

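A set of 49 genes of the endoplasmic reticulum (ER) protein folding machinery, the unfolded protein response and the KDEL retrieval receptors was followed in BT474 cells treated with AICAR. BT474 is a long-established cell line from a human breast tumour that carries extra copies of ERBB2. The genes were taken by symbol, and each was read from the probe set with the highest mean among those that the platform annotation assigns to 1 gene. Of the 49 genes, 45 had such a probe set, out of 19775 genes in all, and 44 were bright enough to be tested, out of 13842. ERO1B lay below the brightness bound, PDIA5 and SYVN1 had a probe set that is also listed for a microRNA and was not used, and KDELR2 and SEC61G were not analysed here. Probe sets of HSP90B1 that are also listed for a microRNA were likewise left out, and that gene was read from another. Cells received 0.5 mM AICAR or vehicle in fresh DMEM, and total RNA was taken after 24 h and hybridised to Affymetrix arrays, with 2 AICAR and 2 vehicle arrays. AICAR is a nucleoside that cells phosphorylate to an AMP mimic, which activates the energy sensor kinase AMPK. Both groups are 1 cell line at 1 dose and 1 time. The labels do not say whether replicate arrays stand for separate cultures, so every p-value reflects only how far these arrays spread, and that spread could be technical.

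Proteins that enter the secretory route are pushed into the ER through the SEC61 channel, folded by chaperones and disulfide isomerases, and, when they fail to fold, pulled back to the cytosol and degraded. Lumenal chaperones end in a KDEL-like tail that KDEL receptors recognise in the Golgi, which returns escaped chaperones to the ER. When unfolded protein builds up, the sensors IRE1 (ERN1), PERK (EIF2AK3) and ATF6 start the unfolded protein response, in which XBP1 and the cleaved form of ATF6 induce chaperone and degradation genes and PERK slows translation and raises ATF4. Luminal breast cells are secretory and are known for high XBP1.

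Values are log2 expression as deposited, and differences are AICAR minus vehicle on that scale. A gene is said to have risen or fallen where its adjusted p was under 0.05 (limma, two-sided, Benjamini-Hochberg over the 13842 genes tested). The array medians ran from 6.37 to 6.40, the probe set values of the AICAR pair correlated at r = 0.997, as did those of the vehicle pair, and pairs across the treatments gave r = 0.994 to 0.995. The 9 BT474 markers were above the brightness bound, and ESR1 among them fell (-0.31). Of 13 measured markers of stromal, endothelial and blood cells, 7 were above the bound and 1 fell, COL1A1 (-0.63). The summed level of these markers was 10.56 and 10.65 (log2) in the AICAR arrays, against 10.85 and 10.94 in the vehicle arrays. Without COL1A1 the sum was 9.82 and 9.76 with AICAR, against 9.74 and 9.78 with vehicle, so the groups overlapped. The part of COL1A1 in the results that follow was not tested.

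Most of the ER genes tested differed by less than 0.2 between AICAR and vehicle, as did most of all genes tested. A single member, the KDEL receptor KDELR3, stood at a 2.10-fold rise. Of the 44 genes tested, 3 rose (KDELR3, ERO1A and EDEM2), 2 fell (CREB3L4 and DERL2) and 39 did not pass. That is 11.4% called, against 9.82% of all genes tested, so the number of calls was close to the background. Among all genes 4.63% rose and 5.19% fell, which is 641 and 718 genes, and after quantile normalization the split was 853 and 624. At an unadjusted p under 0.05 there were 4 higher and 2 lower members, against 12.8% and 13.3% of all genes. Differences smaller than 0.2 were found for 35 of the 44 members, or 79.5%, and for 74.1% of all genes tested. The members' median difference was 0.05, against 0.01 over all genes tested, and 26 of 44 differences were positive, against 52.4% of all genes. Both AICAR arrays lay above both vehicle arrays for 22 members and below them for 11, against 28.5% and 28% of all genes. When the probe sets of each gene were averaged the members' median was -0.012. Without vehicle replicate 1, vehicle replicate 2 or AICAR replicate 2, KDELR3 alone passed among the members. Without AICAR replicate 1, KDELR3, ERO1A and CREB3L4 passed, EDEM2 and DERL2 did not, and EDEM3 and SEC24D passed in addition. The RNA comes from whole cultures, so fewer expressing cells and less RNA per cell cannot be told apart.

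**Figure D1:**
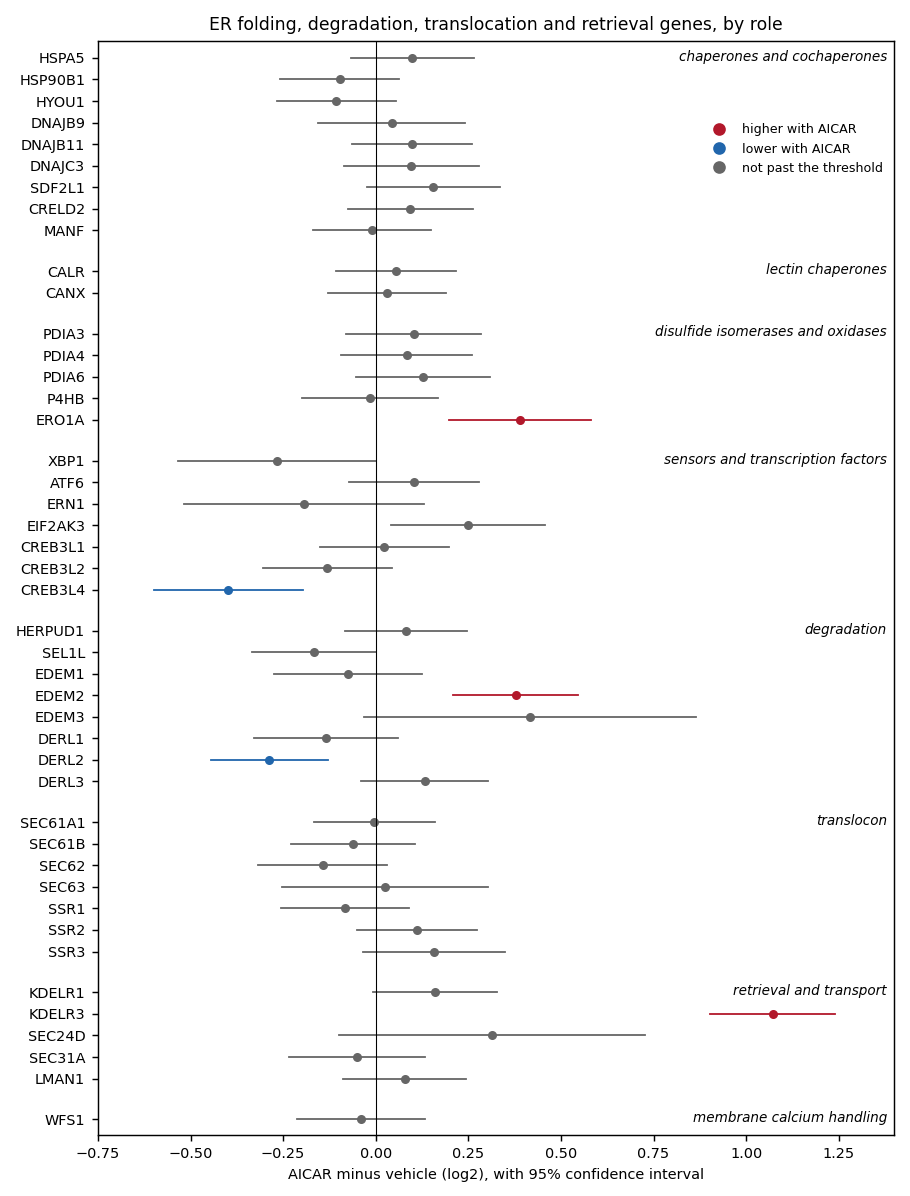
Difference between AICAR and vehicle (log2, x axis) of each of the 44 members tested, in order of role, with its 95% confidence interval from limma as a line. Red marks genes that rose, blue genes that fell and grey those that did not pass. KDELR3 at 1.07 lies to the right of every other member, and the chaperones at the top lie between -0.11 and 0.16.

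The 3 sensors of the unfolded protein response did not pass the test. Over all genes 9.82% passed, and 3 genes are too few to read a lack of calls from. ATF6, the membrane-bound factor that is cleaved in the Golgi under stress, read 9.86 and 9.85 (log2) in the AICAR arrays, against 9.81 and 9.70 in the vehicle arrays, which left 0.10 between the means (95% confidence interval -0.07 to 0.28, adjusted p = 0.421). ERN1, the kinase and RNase that splices XBP1 mRNA, read 7.15 and 7.28 with AICAR, against 7.61 and 7.21 with vehicle. Its groups overlapped, and the difference of -0.19 (-0.52 to 0.13, adjusted p = 0.410) rested on vehicle replicate 1, without which it was 0.0069. EIF2AK3, the PERK kinase that phosphorylates eIF2α, read 9.75 and 9.93 with AICAR, against 9.56 and 9.63 with vehicle. Both AICAR values were the higher, with a difference of 0.25 (0.04 to 0.46, adjusted p = 0.129), and the gene passed in 1 of 12 other settings, trend and robust variances (adjusted p = 0.0389). The difference was 0.16 without AICAR replicate 2, and 0.10 (adjusted p = 0.388) when averaged with its dim second probe set, which differed by -0.06.

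Of the 4 transcription factors that act with these sensors or resemble ATF6, 1 fell. Over all genes 5.19% fell, and 4 genes are too few to read a share from. XBP1, the target of IRE1 and an activator of chaperone and degradation genes, read 12.03 and 12.29 in the AICAR arrays, against 12.33 and 12.52 in the vehicle arrays. The groups did not overlap, but each pair spread widely, and the difference of -0.27 (-0.53 to 0.00) had an adjusted p of 0.192. The second XBP1 probe set, just above the brightness bound at a mean of 6.22 against 12.29 for the one used, differed by 0.07. The mean of both, which gives that dim probe set equal weight, differed by -0.10. The difference was -0.14 without AICAR replicate 1 and -0.17 without vehicle replicate 2. These probe sets measure total XBP1 mRNA and are not annotated to a spliced form, so splicing was not measured. CREB3L4, a membrane-bound bZIP factor of the ATF6-like CREB3 family, read 11.87 and 11.68 with AICAR, against 12.16 and 12.19 with vehicle. It was 1.32-fold lower (log2 -0.40, SE 0.0839, adjusted p = 0.0363), with both AICAR values below both vehicle values and a single probe set to judge from. Its relatives CREB3L1 (0.02) and CREB3L2 (-0.13) did not pass.

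**Figure D2:**
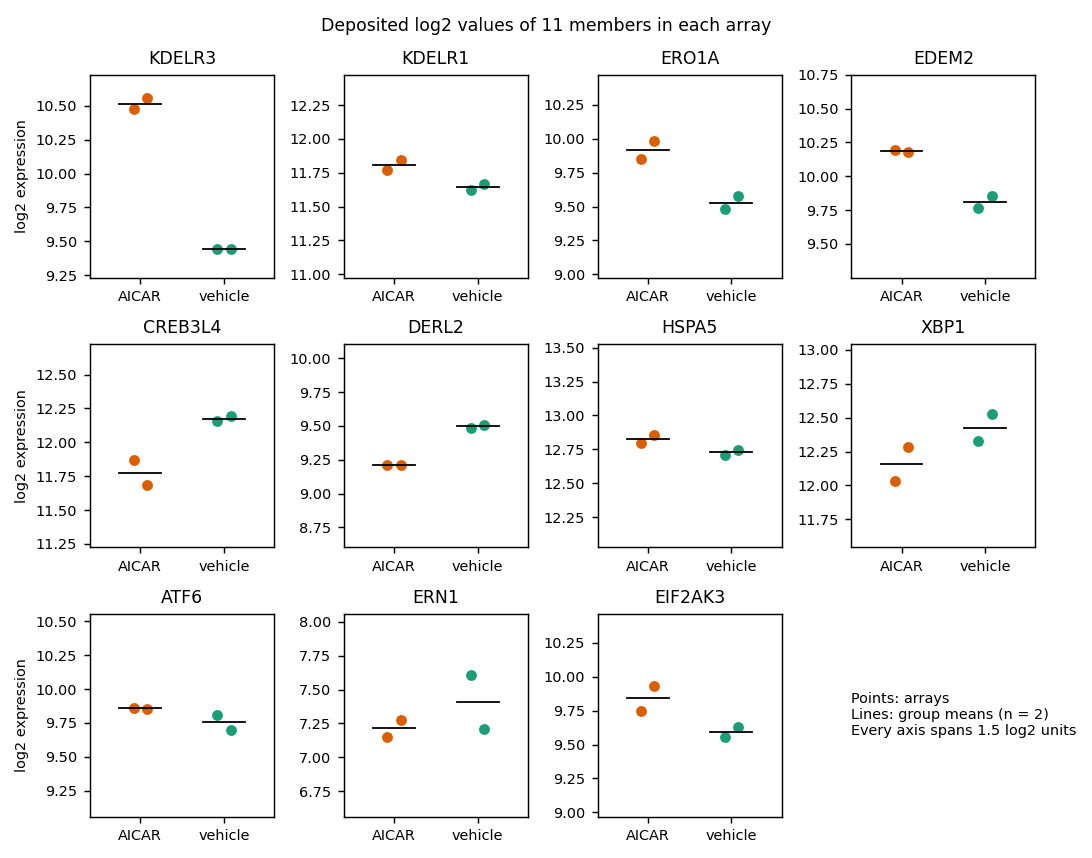
Deposited log2 values (y axis) of 11 members in each array, with AICAR on the left and vehicle on the right of every panel. Points are arrays, lines are group means (n = 2), and every y axis spans 1.5 log2 units. KDELR3 stands at 10.47 and 10.56 with AICAR, against 9.45 and 9.45 with vehicle, while HSPA5, ATF6 and KDELR1 differ by 0.16 or less.

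The lumenal chaperones and their cochaperones, the classic targets of the unfolded protein response, did not pass in any case. HSPA5, the ER Hsp70 BiP, read 12.80 and 12.86 in the AICAR arrays, against 12.71 and 12.75 in the vehicle arrays. Its difference was 0.10 (95% confidence interval -0.07 to 0.26, adjusted p = 0.410). Of the 9 genes 0 passed in limma, with or without trend moderation, against 9.82% of all genes without it. At an unadjusted p under 0.05 there were 0 of the 9, against 12.8% higher and 13.3% lower of all genes. At such shares 9 genes are too few to read a lack of calls from. Their differences ran from -0.11 for HYOU1, the large Hsp70 that exchanges nucleotide on BiP, to 0.16 for SDF2L1, a partner of the J-domain cochaperone DNAJB11. The stress-induced lumenal proteins MANF and CRELD2 differed by -0.01 and 0.09, the ER Hsp90 HSP90B1 by -0.10, and the J-domain proteins DNAJB9, DNAJB11 and DNAJC3 by 0.04, 0.10 and 0.10. The confidence intervals of the 9 genes together reached from -0.27 to 0.33, which corresponds to at most 1.20-fold lower and 1.26-fold higher. The lectin chaperones CALR and CANX, which hold glycoproteins through their trimmed sugar, differed by 0.05 and 0.03, and neither passed. The other CALR probe sets differed by -0.24 and -0.03, while those of CANX were positive.

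Several of these genes carry near their start the ER stress response elements that ATF6 and XBP1 are known to use, and the bases are shown because these are the classic targets of that response. The ER stress response element (ERSE) was searched as CCAAT, any 9 bases, then CCACG, and ERSE-II as ATTGG, any base, then CCACG, on both strands of the 250 bases before each RefSeq start (GRCh38.p14), for the 44 members with such a window. The capitals show an element or its reverse complement, as it reads on the gene's strand. ERSE was found in 8 members and in 0.074% of the 35116 windows of that length in the genome table, and ERSE-II in 3 members and 0.0513% of windows. The whole 250 bases before HSPA5, 5′ to 3′ on the gene's strand, are followed by the element of other members with 10 bases on each side where the window allows. HYOU1 holds 2 ERSE-II matches and the one shown overlaps the motif TGACGTGG, and of the 2 ERSE matches of HSP90B1 the one nearer the start is shown.
HSPA5, chr9:125241344-125241593 (- strand): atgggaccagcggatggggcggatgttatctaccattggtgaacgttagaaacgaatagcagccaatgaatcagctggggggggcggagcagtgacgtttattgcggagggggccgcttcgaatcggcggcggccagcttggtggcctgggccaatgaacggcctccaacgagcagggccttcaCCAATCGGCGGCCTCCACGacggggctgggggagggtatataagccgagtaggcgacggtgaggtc
HSP90B1, chr12:103930311-103930349 (+ strand): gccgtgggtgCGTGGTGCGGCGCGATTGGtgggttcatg
CALR, chr19:12938374-12938412 (+ strand): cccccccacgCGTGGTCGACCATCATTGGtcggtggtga
CANX, chr5:179698768-179698806 (+ strand): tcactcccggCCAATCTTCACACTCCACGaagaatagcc
CRELD2, chr22:49918544-49918582 (+ strand): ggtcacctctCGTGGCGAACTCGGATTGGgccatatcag
PDIA6, chr2:10812843-10812881 (- strand): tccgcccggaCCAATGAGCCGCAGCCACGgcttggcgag
XBP1, chr22:28800593-28800631 (- strand): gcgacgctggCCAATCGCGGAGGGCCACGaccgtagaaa
HERPUD1, chr16:56932015-56932045 (+ strand): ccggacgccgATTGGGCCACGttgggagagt
SDF2L1, chr22:21642104-21642134 (+ strand): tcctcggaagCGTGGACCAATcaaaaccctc
HYOU1, chr11:119057370-119057400 (- strand): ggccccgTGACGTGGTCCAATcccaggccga

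In HSPA5 the element begins 66 bases before the start. The 7 tested members with an ERSE (HSPA5, HSP90B1, CALR, CANX, CRELD2, PDIA6 and XBP1) differed by -0.27 to 0.13. Of these 7 genes 0 passed, against 9.82% of all genes. The 3 with an ERSE-II differed by -0.11 (HYOU1), 0.08 (HERPUD1) and 0.16 (SDF2L1). None of KDELR3, ERO1A, EDEM2, CREB3L4 and DERL2 holds either element in its window. With 7 and 3 genes these counts cannot be told from the share over all genes, and a link between element and response was not tested. A match is a description of the letters and not a measure of binding.

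Among the disulfide isomerases and their oxidases, ERO1A rose and the isomerases themselves did not pass. Over all genes 4.63% rose and 5.19% fell, and so small a group does not allow a count to be read as a result. ERO1A, the oxidase that renews the disulfide of protein disulfide isomerase and is known as a hypoxia-induced gene, read 9.85 and 9.99 in the AICAR arrays, against 9.48 and 9.58 in the vehicle arrays. Both AICAR values lay above both vehicle values, a 1.31-fold rise (log2 0.39, SE 0.0797, adjusted p = 0.0330). Its other probe sets differed by 0.34 and 0.05, and with the mean of the 3 it did not pass (0.26, adjusted p = 0.0696). The isomerases P4HB, PDIA3, PDIA4 and PDIA6, which form and rearrange disulfides, differed by -0.02, 0.10, 0.08 and 0.13. The other probe sets of P4HB differed by -0.17 and -0.28 and those of PDIA3 by 0.01 and -0.17, while those of PDIA4 and PDIA6 were positive. ERO1B, the paralog of ERO1A known from pancreas, lay below the brightness bound at 5.89 and 5.74 with AICAR, against 6.32 and 6.03 with vehicle, and in a fit of all genes it differed by -0.36 (adjusted p = 0.157).

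The translocation channel and its partners differed by 0.16 or less at the probe sets used. In limma 0 of 7 genes passed, against 9.82% of all genes. At an unadjusted p under 0.05 there were 0, against 12.8% higher and 13.3% lower of all genes. So few genes do not allow a lack of calls to be read as a result. SEC61A1, the pore of the channel, differed by -0.0038 and its small partner SEC61B by -0.06. The signal sequence receptor subunits, which help some chains to enter, differed by -0.08 (SSR1), 0.11 (SSR2) and 0.16 (SSR3). SEC62 and SEC63, which assist translocation after synthesis, differed by -0.14 and 0.02. For SEC63 the probe sets disagreed, and 4 of the 5, a dim one included, were negative. The one used read 10.54 and 10.87 with AICAR, against 10.64 and 10.72 with vehicle, while another read 7.40 and 7.55 with AICAR, against 8.30 and 8.10 with vehicle. That second probe set was lower by 0.73 (log2 -0.73, adjusted p = 0.0144 in a fit of all probe sets), and with the mean of its 5 probe sets SEC63 fell. A further probe set, nearly as bright as the one used (mean 10.54 against 10.69), differed by -0.35.

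ER-associated degradation had 1 gene that rose and 1 that fell among 8 tested, a small group in which nothing beyond these genes is read from the counts. Over all genes 4.63% rose and 5.19% fell. EDEM2, which starts the mannose trimming that marks a misfolded glycoprotein for removal, read 10.20 and 10.18 in the AICAR arrays, against 9.77 and 9.86 in the vehicle arrays. It was 1.30-fold higher (log2 0.38, SE 0.0703, adjusted p = 0.0261), with no overlap between the groups. EDEM2 did not pass in any fit that left out 1 array (adjusted p = 0.0617 to 0.174). DERL2, a derlin of the membrane channel through which such proteins leave, read 9.21 and 9.21 with AICAR, against 9.49 and 9.51 with vehicle. The fall was 1.22-fold (log2 -0.29, SE 0.0659, adjusted p = 0.0455), with no overlap between the groups. Its second probe set differed by -0.23. DERL2 passed in 3 of 12 other settings, and in no fit that left out 1 array.

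The remaining degradation genes did not pass. EDEM3, a mannosidase related to EDEM2, read 7.92 and 8.50 with AICAR, against 7.90 and 7.69 with vehicle. Its difference of 0.42 had a wide confidence interval (-0.03 to 0.86), and the AICAR arrays differed from each other by more than the vehicle arrays. The other EDEM3 probe sets differed by 0.20 and -0.08. EDEM1 differed by -0.07. SEL1L, the scaffold of the main degradation ligase, differed by -0.17 (adjusted p = 0.195), and its 4 probe sets were negative, from -0.44 to -0.17. HERPUD1, a strongly stress-induced partner of that ligase, differed by 0.08, and the derlins DERL1 and DERL3 by -0.14 and 0.13.

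The KDEL receptors gave the largest difference of the set. KDELR3 read 10.47 and 10.56 in the AICAR arrays, against 9.45 and 9.45 in the vehicle arrays. The groups were separated by many times the spread within either, and KDELR3 was 2.10-fold higher (log2 1.07, 95% confidence interval 0.90 to 1.24, SE 0.0700, adjusted p = 0.00351). In size it ranked 21 among the 641 genes that rose. A second probe set of KDELR3 read 10.18 and 10.17 with AICAR, against 9.38 and 9.33 with vehicle, a difference of 0.83 (adjusted p = 0.00733 in a fit of all probe sets). The remaining probe set was dim, at 5.59 and 5.72 with AICAR, against 5.66 and 5.61 with vehicle, and differed by 0.02. With the mean of the 3 the rise was 0.64 (adjusted p = 0.00591). KDELR3 passed in each of the 12 other settings tried, those that left out 1 array included. KDELR1, the widely expressed receptor, read 11.77 and 11.84 with AICAR, against 11.62 and 11.67 with vehicle. Its difference of 0.16 (-0.01 to 0.33, adjusted p = 0.209) did not pass, and its other probe set differed by -0.02. Whether the 2 receptors differ in response was not tested.

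The 250 bases before the starts of both receptors are printed, 5′ to 3′ on the gene's strand. Those of KDELR3 hold a match to the letters of the unfolded protein response element, and those of KDELR1 do not. The element was searched as TGACGTGG on both strands and is marked by capitals, here on the opposite strand. It was found in 0.612% of the 35116 windows and in 4 members (KDELR3, HYOU1, SEC62 and SSR3), and in HYOU1 it overlaps an ERSE-II. The cAMP response element TGACGTCA, which CREB-like factors are known to bind, was found in 1.65% of windows and in CREB3L2 among the members.
KDELR3, chr22:38467846-38468095 (+ strand): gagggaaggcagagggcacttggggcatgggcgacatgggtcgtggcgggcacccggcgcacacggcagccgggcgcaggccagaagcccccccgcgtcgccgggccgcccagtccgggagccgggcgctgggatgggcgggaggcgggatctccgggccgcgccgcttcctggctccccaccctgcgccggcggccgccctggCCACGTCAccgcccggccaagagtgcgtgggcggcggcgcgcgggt
KDELR1, chr19:48391552-48391801 (- strand): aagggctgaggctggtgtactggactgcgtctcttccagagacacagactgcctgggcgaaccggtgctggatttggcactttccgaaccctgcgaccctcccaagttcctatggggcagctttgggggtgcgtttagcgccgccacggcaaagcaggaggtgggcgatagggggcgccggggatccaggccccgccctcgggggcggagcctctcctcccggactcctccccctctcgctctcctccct
SEC62, chr3:169966780-169966806 (+ strand): cctcctcgctCCACGTCAgagggaacc
SSR3, chr3:156554149-156554176 (- strand): ctgataacagCCACGTCAgcaaggaaac

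In KDELR3 the element lies 46 to 39 bases before the start. The 4 genes that hold it differed by 1.07 (KDELR3), -0.11 (HYOU1), -0.14 (SEC62) and 0.16 (SSR3). Of these 4 genes 1 passed, against 9.82% of all genes. With 4 genes this count cannot be told from the share over all genes, and a link between element and response was not tested. Binding of any factor was not measured.

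Transport genes of the forward route did not pass. Over all genes 9.82% passed, so a lack of calls among so few genes is not read as a result. SEC31A, an outer coat subunit of the COPII vesicles that leave the ER, differed by -0.05, and LMAN1, a lectin receptor that carries glycoprotein cargo in those vesicles, by 0.08. SEC24D, an inner coat subunit that selects cargo, read 7.41 and 7.96 with AICAR, against 7.31 and 7.44 with vehicle. The groups overlapped, and its difference was 0.31 (-0.10 to 0.73). WFS1, an ER membrane protein linked to calcium handling, differed by -0.04.

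Agreement among the probe sets of a gene varied. Of the 45 measured members 36 had more than 1 probe set, and in 19 of these the probe sets shared a sign, 9 positive and 10 negative. The remaining 17 had probe sets of both signs. Of 105 member probe sets above the brightness bound, 6 passed in a fit of all probe sets, in which 8.68% of 24874 probe sets passed. They were both bright probe sets of KDELR3 and 1 each of ERO1A, EDEM2, CREB3L4 and SEC63. The 6 probe sets of SSR1 ran from -0.21 to -0.08, the 5 of SEC62 from -0.40 to -0.04, the 4 of PDIA6 from 0.01 to 0.13 and the 5 of CANX from 0.03 to 0.28, and none of these genes passed.

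**Figure D3:**
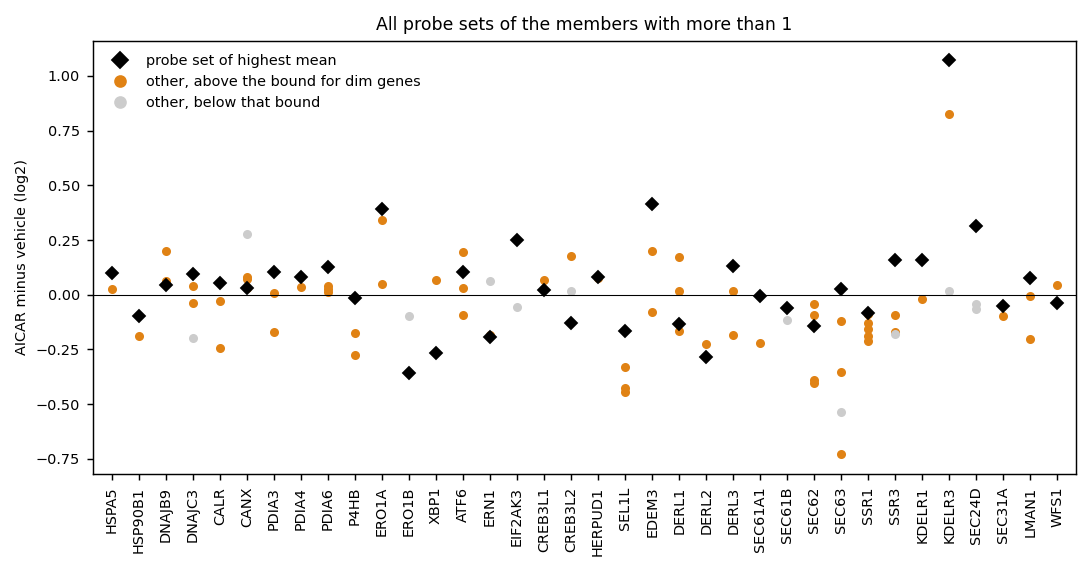
Difference between AICAR and vehicle (log2, y axis) of each probe set of the 36 members with more than 1. Black diamonds are the probe sets used, orange points other probe sets above the brightness bound and grey points those below it. The bright KDELR3 probe sets lie at 1.07 and 0.83, while those of SEC63 run from -0.73 to 0.02.

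Further genes of the same route were counted in 7 lists that hold none of the 49 genes. Of 139 such genes tested, 1 rose and 7 fell, which is 5.76% called against 9.82% of all genes. The integrated stress response list holds the sister kinases of PERK (EIF2AK1, EIF2AK2 and EIF2AK4) and genes that act downstream of these kinases. Of its 19 genes 0 rose and 3 fell, against 4.63% and 5.19% of all genes, with a median of -0.17. At an unadjusted p under 0.05 the list had 0 higher and 9 lower, against 12.8% and 13.3% of all genes. The 3 were ATF4, the central transcription factor of that response, at 12.79 and 12.71 with AICAR, against 13.16 and 13.18 with vehicle (log2 -0.42, SE 0.0697, adjusted p = 0.0201), the secreted glycoprotein STC2 (-0.39, adjusted p = 0.0218) and the transcription factor CEBPB (-0.30, adjusted p = 0.0426). In each of them both AICAR values lay below both vehicle values. The arrays read mRNA, and ATF4 protein was not measured. The list had 0 calls when either vehicle array was left out, 1 without AICAR replicate 2 and 3 without AICAR replicate 1.

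Other disulfide isomerase relatives held the largest rise of these lists. ERP27, a family member without catalytic activity that binds PDIA3, read 9.92 and 9.88 in the AICAR arrays, against 8.81 and 8.58 in the vehicle arrays. The rise was 2.30-fold (log2 1.20, SE 0.0923, adjusted p = 0.00477), and ERP27 ranked 13 among the genes that rose. The membrane-bound relatives TMX3 (-0.39, adjusted p = 0.0339) and TMX2 (-0.34, adjusted p = 0.0299) fell, and the other 12 of 15 did not pass. Over all genes 9.82% passed. In each fit that left out 1 array 1 gene of the list rose, while 0 of the list fell without vehicle replicate 1, vehicle replicate 2 or AICAR replicate 1, and 1 fell without AICAR replicate 2.

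In targeting and translocation 1 of 17 genes fell and 0 rose, against 5.19% and 4.63% of all genes. The gene that fell was SEC61A2, the paralog of SEC61A1, at 7.77 and 7.78 with AICAR, against 8.18 and 8.14 with vehicle (log2 -0.39, adjusted p = 0.0225). Of 14 calcium store genes 1 fell, the ER calcium pump ATP2A3 (-0.33, adjusted p = 0.0389), and 0 rose, against the same shares of all genes. In both lists 0 genes passed in any fit that left out 1 of the 4 arrays.

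The lists for glycosylation and trimming, coat and cargo transport, and other degradation genes had 0 of 16, 0 of 34 and 0 of 24 genes past the threshold (limma). Over all genes 9.82% passed. At an unadjusted p under 0.05 the lists had 3 higher and 1 lower, 2 higher and 1 lower, and 2 higher and 1 lower. Among all genes 12.8% were higher and 13.3% lower at that p. The largest differences were those of OSTC, a subunit of the oligosaccharyltransferase (0.27, adjusted p = 0.0638), of SEC31B, the paralog of SEC31A (0.38, adjusted p = 0.0632), and of HERPUD2, the paralog of HERPUD1 (0.30, adjusted p = 0.223).

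**Figure D4:**
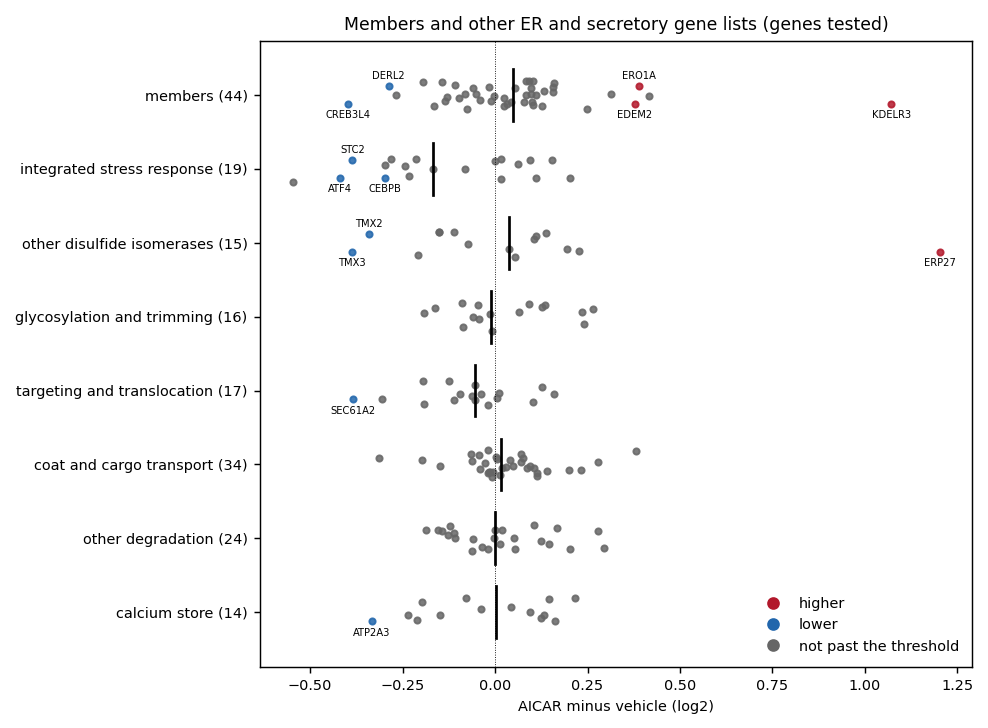
Differences between AICAR and vehicle (log2, x axis) of the tested members and of the tested genes of 7 other ER and secretory lists, with the number tested in brackets. Each point is a gene, red where it rose and blue where it fell, vertical bars are list medians, and vertical scatter within a row has no meaning. KDELR3 at 1.07 and ERP27 at 1.20 lie apart from the other genes shown, and the bar of the integrated stress response list lies at -0.17.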

How the data were processed

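The deposited log2 values, 1 per probe set and array, had been normalized before deposit. The submitters' processing notes name Affymetrix Expression Console. Which version, summarization and background method it ran was not given in the sources used here, so small changes at dim probe sets are less certain. Of 54675 probe sets, 41097 are listed with 1 gene in the platform annotation, with symbols current in the RefSeq table of GRCh38.p14. Each gene took its probe set of highest mean over the 4 arrays, and a gene was tested where its mean reached a bound of log2 6.11, the 30th percentile over genes. Differences were fitted in limma 3.58.1 (R 4.3.3, lmFit and eBayes, no covariate) over 13842 genes. The same functions were also run on values simulated from their own model, without the dim filter. That run checks the code only and does not bear on the calls made here. The number of arrays sets the precision, and the median standard error of a difference was 0.0772. The members, lists, motifs and alternatives were chosen with earlier results of these data known. Named with values in each array were members past the threshold, the sensors, HSPA5, XBP1 and the KDEL receptors. EDEM3, SEC24D, ERO1B and SEC63 were added after their values were seen. From other lists up to 3 called genes of largest change were named, or 1 where none was called. Promoter bases are RefSeq's (GRCh38.p14).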

Additional observations from a re-analysis of the deposited data

How the results depend on the processing

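Among the members, KDELR3 passed in all 12 alternatives (0.64 to 1.11, adjusted p = 1.15e-06 to 0.0333), whereas ERO1A, EDEM2, CREB3L4 and DERL2 passed in 7, 7, 8 and 3 of 12. Their adjusted p reached 0.196, 0.174, 0.168 and 0.208, with no change of sign. ERN1 ran from -0.39 without vehicle replicate 2 to 0.0069, a change of sign, without vehicle replicate 1. Of the members, 1 rose and 0 fell without the dim filter or at 1.5-fold or more, and 1 fell with the replicate block (DERL2 lost, adjusted p = 0.0766) or quantile normalization. Leaving out 1 array gave 1 to 4 higher and 0 to 1 lower members, and KDELR3 alone passed without vehicle replicate 1, vehicle replicate 2 or AICAR replicate 2. Without AICAR replicate 1 EDEM3 and SEC24D rose while EDEM2 (adjusted p = 0.0617) and DERL2 (0.0938) no longer passed. Their median was 0.04 to 0.06 in those fits, and averaging the probe sets of each gene gave -0.012. Over all genes, 368 rose and 355 fell without the dim filter, 1107 and 1359 with trend and robust variances, 1093 and 1173 at an adjusted p under 0.1, and 179 and 120 at 1.5-fold or more, and leaving out 1 array gave 69 to 553 and 30 to 432. Integrated stress response genes that fell numbered 5 with the 50th percentile filter, 8 with trend, 7 at 0.1, 0 at 1.5-fold and 0 to 3 with 1 array left out, and 1 rose with all probe sets tested separately. Of the other disulfide isomerases 2 rose with the 50th percentile filter, trend, 0.1 or all probe sets, and 0 fell without the dim filter or at 1.5-fold, 0 to 1 with 1 array left out. For glycosylation 2 rose with the 50th percentile filter, quantile normalization or trend, 3 at 0.1, and 1 fell with trend or all probe sets. In targeting, 2 fell with the 50th percentile filter or at 0.1, 4 with trend, and 0 with the mean of probe sets, at 1.5-fold or with any 1 array left out. In coat transport 1 rose with the 50th percentile filter or all probe sets (1 fell), 2 with trend or 0.1, and 0 to 1 with 1 array left out. In other degradation 1 rose with the 50th percentile filter, quantile normalization, 0.1 or all probe sets, and 2 with trend. Of calcium store genes 2 fell with the 50th percentile filter, trend (1 rose) or 0.1, and 0 without the dim filter, after quantile normalization, with the mean of probe sets, at 1.5-fold, with the block or with 1 array left out. The cause of these shifts was not tested, other than the fewer arrays or stricter bound by construction. Same-numbered arrays of both groups did not deviate together (r = -0.0721 across genes), so the numbers give no evidence of pairing.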
